A study of Mus musculus with 12 samples.

Results

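Complement is a cascade of plasma and tissue proteins that tags surfaces for removal and calls in leukocytes. The classical route starts when C1q, with its proteases C1r and C1s, binds a target and cleaves C4 and C2. The alternative route builds its convertase from C3 and factor B, and all routes meet at C3. Regulators such as the C1 inhibitor, which blocks C1r and C1s, restrain the cascade, and the eye is known to keep complement under such restraint.

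The members are 9 genes of this system, out of 45859 genes listed in the RNA-Seq tables. They were taken by symbol: C1qa, C1qb and C1qc (the 3 chains of C1q), C1ra and C1s1 (the mouse C1r and C1s proteases), C4b, C3, Cfb (factor B) and Serping1 (the C1 inhibitor). A further 47 complement genes were listed as context. All 9 members passed the filter on low values in every comparison.

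The 12 libraries were made from lens capsules with their attached lens epithelial cells (LCs) of adult mice aged 2 months. Every animal, of either genotype, had a model cataract surgery in which the lens fiber cells were removed, and the capsules were taken at 0 hours or 24 hours post cataract surgery (PCS), with 3 biological replicates in each of the 4 conditions. WT mice were C57BL/6. β8ITG-cKO mice, on a mixed C57BL/6, 129S1/Sv background, carried floxed Itgb8, which encodes β8 integrin, and MLR10-Cre, a transgene expressed in lens cells from the lens vesicle stage, so that genotype and strain background cannot be told apart. Each library pooled the capsules of several lenses. No unoperated lens was among these libraries, and the 0 hours capsules are the only baseline.

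Gene-level Itgb8 values did not separate the genotypes and so gave no check of their labels, and values per exon were not used here. WT LCs ranged from 7.26 to 10.8 FPKM at 0 hours and from 8.38 to 9.58 FPKM at 24 hours PCS, and β8ITG-cKO LCs from 4.58 to 7.31 and from 9.28 to 11.8 FPKM. Itgb8 did not pass between the genotypes at 0 hours (adjusted p = 0.209) or 24 hours (adjusted p = 0.486), and rose with time in β8ITG-cKO LCs (log2 change 0.68, adjusted p = 0.0132). FPKM are fragments per kilobase of transcript, scaled to the mapped fragments of the library, so levels are per length and can be set beside each other between genes. Read depth per library is unknown from these values. In these bulk libraries fewer cells of a type and less RNA per cell cannot be told apart. Lens epithelium markers summed to between 416 and 894 FPKM in the 12 libraries, and lens fiber markers to between 1029 and 1356 FPKM at 0 hours and between 172 and 336 FPKM at 24 hours PCS. Retinal photoreceptor transcripts were present in all libraries, with a sum over 10 markers of 1152 FPKM in WT 0 hours replicate 2 against 138 and 341 FPKM in the other WT 0 hours libraries.

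In the coordinates of the tables (GRCm38), the 3 C1q genes lie together on the minus strand of chromosome 4, with C1qb at chr4:136880145-136886177, C1qc at chr4:136889802-136892932 and C1qa at chr4:136895916-136898844. C1ra (chr6:124512621-124523440, plus strand) and C1s1 (chr6:124530344-124542392, minus strand) are neighbours. Chromosome 17 holds C4b (chr17:34728036-34743901), Cfb (chr17:34856374-34862514) and C3 (chr17:57203967-57228136), all on the minus strand, and Serping1 is on the minus strand at chr2:84765360-84775444. All 9 are annotated as protein coding. Annotated genes overlap C1s1 (the antisense Gm16567), C3 (the microRNA Mir6978) and Cfb (the microRNA Mir6972, and Gm20547, a protein-coding model that runs across C2 and Cfb). Reads in the shared stretches may be counted with either gene.

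The 100 bases before the start sites of C3, C1ra, C1s1 and C1qc are shown because the first 3 genes had higher values at 24 hours PCS, whereas C1qc of WT LCs did not. They are RefSeq sequences of GRCm38.p6, written 5′ to 3′ on the strand of the gene, at chr17:57228137-57228236 for C3, chr6:124512521-124512620 for C1ra, chr6:124542360-124542459 for C1s1 and chr4:136892915-136893014 for C1qc. Capitals mark matches, on either strand, to TTNNGNAA, a loose form of the motif that C/EBP factors bind.
C3: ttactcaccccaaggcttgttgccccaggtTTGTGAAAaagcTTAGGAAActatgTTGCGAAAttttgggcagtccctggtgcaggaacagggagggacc
C1ra: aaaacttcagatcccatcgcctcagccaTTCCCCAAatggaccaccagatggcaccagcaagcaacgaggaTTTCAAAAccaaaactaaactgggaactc
C1s1: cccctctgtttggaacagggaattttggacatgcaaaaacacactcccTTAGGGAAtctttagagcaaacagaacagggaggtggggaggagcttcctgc
C1qc: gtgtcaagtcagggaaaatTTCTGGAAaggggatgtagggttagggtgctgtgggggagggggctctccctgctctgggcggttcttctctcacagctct

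Within 250 bases before its start site C3 held 3 matches, of which the one nearest to the start matched on both strands. C1s1 held a further match in that window, at bases -242 to -235 from its start site, outside the stretch shown. At least 1 match was found in 36.8% of 32851 RefSeq mouse promoters and 3 or more in 2.61%, so that a single match as in C1qc is common. The other motifs were searched on both strands, except TATAAA, which was searched on the strand of the gene only. The ISRE consensus (bound by interferon-induced factors, in 2.98% of promoters), TTCNNNGAA (a STAT element, in 7.02%) and TATAAA (in 7.59%) had no match in the 5 members with an entry, C3, C1ra, C1s1, C1qc and C1qb. The NF-kB consensus (in 7.25% of promoters) had 1 match, in C1qc. A match is a description of letters in this window only. Entries for C4b, Cfb, Serping1 and C1qa were not used here.

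In WT LCs at 0 hours PCS, Serping1 and C4b had the highest means of the 9 members. Serping1 was first at 32.6 ± 7.30 FPKM (SD, n = 3), above 93.7% of the 15262 genes tested over all libraries, and C4b followed at 19.4 ± 9.45 FPKM, above 88.3%. The next members were C3 (4.92 ± 3.70 FPKM), C1qc, C1s1, C1ra, C1qb and C1qa, and Cfb was last at 1.11 ± 0.601 FPKM. The ranges of the replicates overlapped between all neighbours in this order. In β8ITG-cKO LCs at 0 hours PCS, Serping1 (37.8 ± 2.66 FPKM) was again first and C4b (5.11 ± 0.939 FPKM) again second, with ranges apart from each other and from those of the next gene, and Cfb (0.332 ± 0.201 FPKM) was again last.

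At 24 hours PCS, C3 was the most abundant member in both genotypes. It reached 75.5 ± 41.1 FPKM in WT LCs, above 96.9% of genes, and 106 ± 69.6 FPKM in β8ITG-cKO LCs, above 98% of genes, and its lowest library was above the highest library of the next member in either genotype. Cfb moved from last to second place in WT LCs and to the place after Serping1 in β8ITG-cKO LCs, with overlapping ranges between Cfb and Serping1 in both. The C1q chains were the lowest members in both genotypes.

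**Figure D1:**
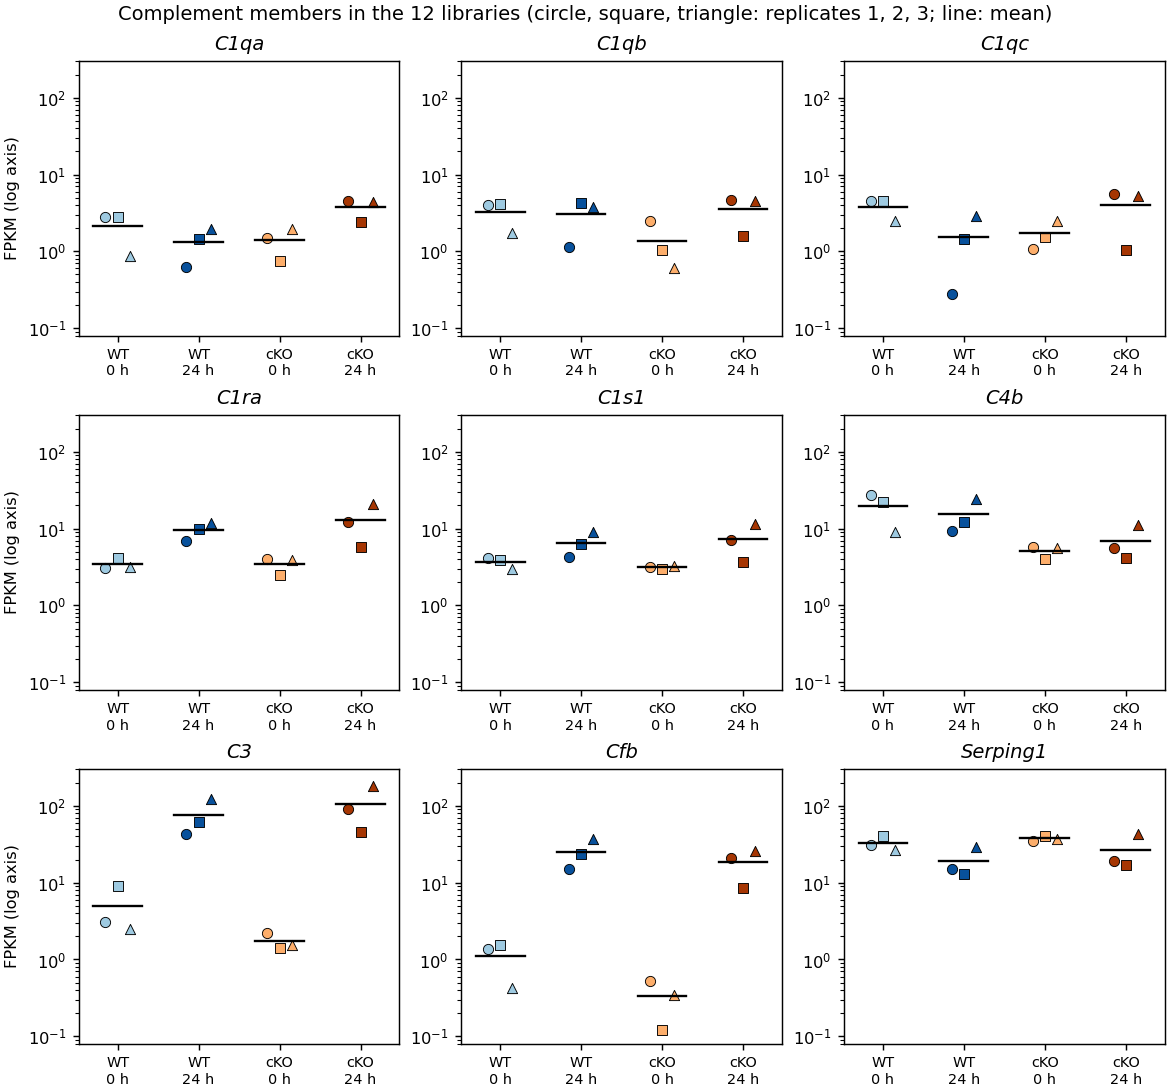
FPKM (log axis) of the 9 members in each of the 12 libraries, with the mean of each condition as a line. C3 and Cfb at 24 hours PCS lie above every 0 hours library of the same genotype, C4b of the β8ITG-cKO 0 hours libraries lies below all 3 WT 0 hours libraries, and Serping1 has overlapping times in both genotypes.

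The first question was how the complement genes of WT LCs respond to surgery. C3, Cfb and C1ra rose by 24 hours PCS in WT LCs. C3, the protein on which all routes converge, was 15.3-fold higher, Cfb, the protease of the alternative convertase, 22.5-fold higher, and C1ra 2.74-fold higher in mean FPKM. C1s1, C4b, Serping1 and the 3 C1q chains did not pass the test. A gene passed with an adjusted p of at most 0.05 in limma on log2(FPKM + 1), and it met all criteria when its means also differed more than 2-fold and by more than 2 FPKM, with at least 2 FPKM in 1 group.

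Of the 9 members, 3 passed as higher and 0 as lower in WT LCs, against 20.9% higher and 8.81% lower of all 15146 genes tested (29.7% in either direction), and the same 3 met all criteria, against 10.3% of genes called higher and 3.92% called lower. The ranges at 24 hours and 0 hours did not overlap for 4 members, C3, Cfb, C1ra and C1s1, all higher at 24 hours, against 31.3% of genes apart as higher and 15.6% as lower. The median change of the members was -0.13 on the log2(FPKM + 1) scale, beside 0.16 over all genes tested. Of all genes past the threshold 70.3% were higher, and 47.9% after the libraries were rescaled to the same median, which moved the median of all genes to -0.0436. C3, Cfb and C1ra remained higher past the threshold after it.

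C3 was 3.10, 9.18 and 2.49 FPKM in the 3 WT libraries at 0 hours and 43.5, 61.0 and 122 FPKM at 24 hours PCS. The times lay far apart, and the lowest 24 hours library was several times above the highest 0 hours library. On the log2(FPKM + 1) scale, which understates the change of low genes, C3 rose by 3.73 ± 0.48 (SE, adjusted p = 0.00179). Cfb was 1.35, 1.56 and 0.43 FPKM at 0 hours and 15, 23.4 and 36.5 FPKM at 24 hours PCS. Its change of 3.58 ± 0.34 (SE, adjusted p = 0.000583) was of the size of that of C3, although the starting level was lower. Both stayed past the threshold in all 11 alternative analyses.

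C1ra, the protease that C1q activates first, was 3.09, 4.17 and 3.12 FPKM in WT LCs at 0 hours and 6.80, 9.86 and 11.8 FPKM at 24 hours PCS (log2 change 1.21 ± 0.21 SE, adjusted p = 0.00569). C1s1, its partner, which cleaves C4 and C2, was 4.18, 3.88 and 2.97 FPKM at 0 hours and 4.24, 6.32 and 8.96 FPKM at 24 hours. The C1s1 times were apart only by the narrow gap between 4.18 and 4.24 FPKM, and its change of 0.64 ± 0.25 did not pass (adjusted p = 0.0865). Without WT 24 hours replicate 1, the library with that lowest value, the C1s1 change was 0.88 and passed (adjusted p = 0.0297).

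C1ra and its neighbouring paralog C1rb share sequence, with 34.5% of the 100-base windows of the longest coding C1ra transcript also found in C1rb, so the authors' counting could split reads between them. C1rb rose as well in WT LCs, from a mean of 0.970 to 2.83 FPKM (log2 change 0.95 ± 0.20 SE, adjusted p = 0.0110), below the required difference of 2 FPKM. The ratio of C1ra to C1rb stayed between 2.67 and 3.94 over the 12 libraries. C1s2, the paralog of C1s1 with 7.9% of windows shared, was 0.535 and 0.547 FPKM on average at 0 and 24 hours in WT LCs (adjusted p = 0.971).

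C4b, the cascade step between C1s and C3, was 27.3, 22.1 and 8.92 FPKM in WT LCs at 0 hours and 9.34, 12.2 and 24.3 FPKM at 24 hours PCS. The ranges covered nearly the same span, and the log2 difference was -0.30 (95% confidence interval from -1.34 to 0.74, adjusted p = 0.639). C4b shared 16.5% of its windows with C4a, and C4b was between 7.35 and 13.3 times C4a in the 12 libraries.

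Serping1 was 30.5, 40.7 and 26.5 FPKM in WT LCs at 0 hours and 15, 13.1 and 29.6 FPKM at 24 hours PCS. Replicates 1 and 2 at 24 hours lay below all 0 hours libraries, and replicate 3 lay within them. The log2 difference was -0.80 ± 0.30 (SE, adjusted p = 0.0829). Without WT 24 hours replicate 3 it was -1.14 and passed (adjusted p = 0.00668), and after the libraries were rescaled to the same median it was -1.05 (adjusted p = 0.0445).

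The C1q chains, which bind the target and are known to be made mainly by macrophages and other myeloid cells, were low throughout. C1qa was 2.78, 2.82 and 0.88 FPKM in WT LCs at 0 hours and 0.63, 1.47 and 1.93 FPKM at 24 hours PCS (log2 difference -0.40, adjusted p = 0.395). C1qb was 3.96, 4.15 and 1.76 FPKM and then 1.13, 4.23 and 3.83 FPKM (-0.13, adjusted p = 0.826). C1qc was 4.54, 4.50 and 2.46 FPKM and then 0.28, 1.45 and 2.89 FPKM (-1.04, adjusted p = 0.0850). All 3 chains overlapped between the times, with WT 24 hours replicate 1 lowest for each, and without WT 24 hours replicate 3 the C1qc difference of -1.41 passed (adjusted p = 0.0204).

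The second question was whether LCs without β8 integrin respond in the same way. In β8ITG-cKO LCs, C3, Cfb, C1ra, C1s1 and C1qa rose by 24 hours PCS, with means 61.7-fold, 55.7-fold, 3.69-fold, 2.36-fold and 2.70-fold higher. These 5 members passed and met all criteria, and 0 passed as lower, against 35.4% of 15237 genes higher and 10.7% lower (46.1% in either direction), with 11.3% called higher and 3.77% called lower. The same 5 had ranges apart, all higher at 24 hours, against 42.9% of genes higher and 14.0% lower. The median log2 change of the members was 0.94, beside 0.23 over all genes. Of all genes past the threshold 76.7% were higher, and 51.4% after rescaling, in which C1s1 was no longer past the threshold (0.66, adjusted p = 0.112). Markers of other cells were higher at 24 hours in this genotype too. All 5 red blood cell markers passed as higher (sums of 6.52 to 15.8 FPKM and then 87.4 to 195 FPKM) and all 10 photoreceptor markers (177 to 328 and then 848 to 990 FPKM), whereas in WT LCs 0 of either list passed as higher. Their part in the changes of the members was not tested.

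C3 was 2.2, 1.43 and 1.54 FPKM in β8ITG-cKO LCs at 0 hours and 91.4, 45.3 and 182 FPKM at 24 hours PCS. Replicate 2 at 24 hours was the lowest of the 3 and still far above the 0 hours libraries (log2 change 5.09 ± 0.43 SE, adjusted p = 9.4e-05). Cfb was 0.52, 0.12 and 0.35 FPKM and then 20.9, 8.41 and 26.1 FPKM (3.75 ± 0.36 SE, adjusted p = 0.00017). Both were past the threshold in all 11 alternatives.

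C1ra was 4.01, 2.49 and 3.95 FPKM in β8ITG-cKO LCs at 0 hours and 12.2, 5.71 and 20.7 FPKM at 24 hours PCS (log2 change 1.49 ± 0.38 SE, adjusted p = 0.0151). Without β8ITG-cKO 0 hours replicate 2 the change was 1.32 and missed the threshold (adjusted p = 0.0534). C1s1 was 3.13, 2.99 and 3.25 FPKM and then 7.05, 3.65 and 11.4 FPKM (0.91 ± 0.31 SE, adjusted p = 0.0443). The call of C1s1 was lost in 7 of 11 alternatives, among them the omission of β8ITG-cKO 0 hours replicates 1, 2 or 3 or of 24 hours replicates 1 or 3 (adjusted p from 0.0876 to 0.105). C1rb followed C1ra, from a mean of 1.18 to 3.97 FPKM (adjusted p = 0.0356), and was lost in 7 alternatives.

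C1qa was 1.5, 0.74 and 1.94 FPKM in β8ITG-cKO LCs at 0 hours and 4.51, 2.41 and 4.39 FPKM at 24 hours PCS, a log2 change of 0.99 ± 0.25 (SE, adjusted p = 0.0141). The other chains did not pass. C1qb was 2.51, 1.05 and 0.60 FPKM and then 4.69, 1.59 and 4.49 FPKM (adjusted p = 0.0744), and C1qc 1.08, 1.54 and 2.52 FPKM and then 5.64, 1.03 and 5.33 FPKM (adjusted p = 0.217). Replicates 1 and 3 at 24 hours were above all 0 hours libraries for each chain, and replicate 2 was within the 0 hours range for C1qb and below it for C1qc. Without that replicate C1qb (log2 change 1.31, adjusted p = 0.0172) and C1qc (1.29, adjusted p = 0.00545) passed, and C1qb also passed without β8ITG-cKO 0 hours replicate 1 (1.26, adjusted p = 0.0300).

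C4b was 5.72, 4.03 and 5.58 FPKM in β8ITG-cKO LCs at 0 hours and 5.52, 4.13 and 11 FPKM at 24 hours PCS, with overlapping ranges and a log2 difference of 0.28 (95% confidence interval from -0.40 to 0.97, adjusted p = 0.466). Serping1 was 35.4, 40.7 and 37.3 FPKM and then 19.3, 17.0 and 42.6 FPKM (-0.62 ± 0.30 SE, adjusted p = 0.128). As in WT LCs, 2 of the 3 libraries at 24 hours lay below all 0 hours libraries, and replicate 3 lay above them. Without β8ITG-cKO 24 hours replicate 3 the Serping1 difference was -1.02 and passed (adjusted p = 0.000664), and after rescaling it was -0.92 (adjusted p = 0.034).

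**Figure D2:**
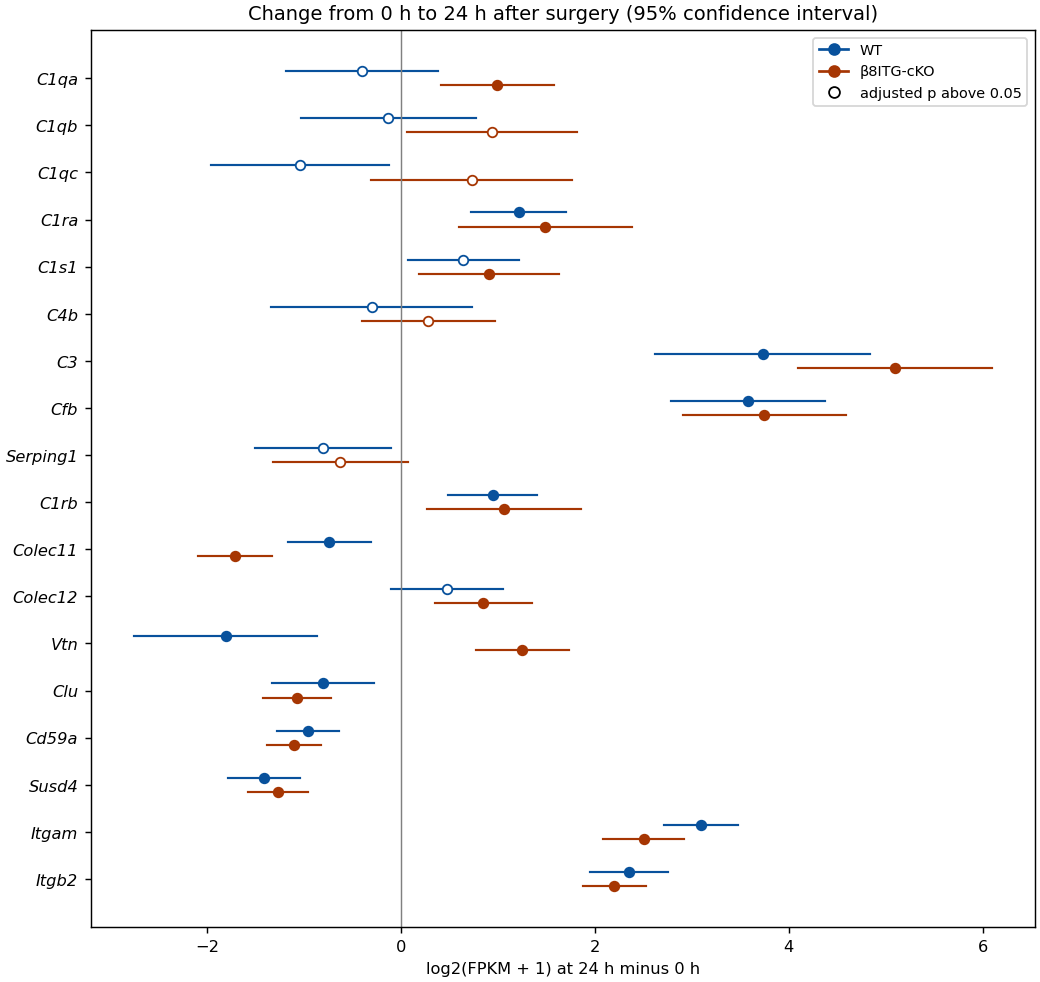
Change in log2(FPKM + 1) from 0 hours to 24 hours PCS for the 9 members and 9 other complement genes in WT (blue) and β8ITG-cKO LCs (brown), as limma estimates with 95% confidence intervals, open where the adjusted p is above 0.05. C3 (3.73 and 5.09) and Cfb (3.58 and 3.75) have the highest estimates shown in both genotypes, and Vtn has opposite signs.

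Within single libraries, the order of C3 and Serping1 turned over with time. C3 was between 0.0941 and 0.226 times Serping1 in WT LCs at 0 hours and between 2.91 and 4.67 times at 24 hours PCS. In β8ITG-cKO LCs the ratio went from between 0.0351 and 0.0622 to between 2.66 and 4.74. Each 0 hours library had less C3 than Serping1 and each 24 hours library had more. The C1 inhibitor blocks C1r and C1s, however, and Serping1 stayed above C1s1 in every library. Serping1 was 7.3 to 10.5 times C1s1 in WT LCs at 0 hours and 2.1 to 3.5 times at 24 hours PCS. In β8ITG-cKO LCs it was 11.3 to 13.6 times and then 2.7 to 4.7 times.

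The 2 classical proteases stayed within 2-fold of each other, and C1ra gained on C1s1. The ratio of C1ra to C1s1 was between 0.737 and 1.07 in WT LCs at 0 hours and between 1.32 and 1.61 at 24 hours PCS, and between 0.835 and 1.28 and between 1.56 and 1.81 in β8ITG-cKO LCs. Times did not overlap in either genotype. C3 relative to C4b was between 4.66 and 5.02 in WT LCs at 24 hours and between 11 and 16.6 in β8ITG-cKO LCs, after overlapping ranges at 0 hours (0.114 to 0.416 and 0.275 to 0.385). Cfb relative to C2, its classical counterpart, went from between 0.756 and 3.59 to between 16.0 and 35.5 in WT LCs and from between 0.266 and 1.68 to between 10.9 and 49.0 in β8ITG-cKO LCs. Cfb and C2 shared 0 of the 100-base windows compared. These ratios are descriptions and were not tested.

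**Figure D3:**
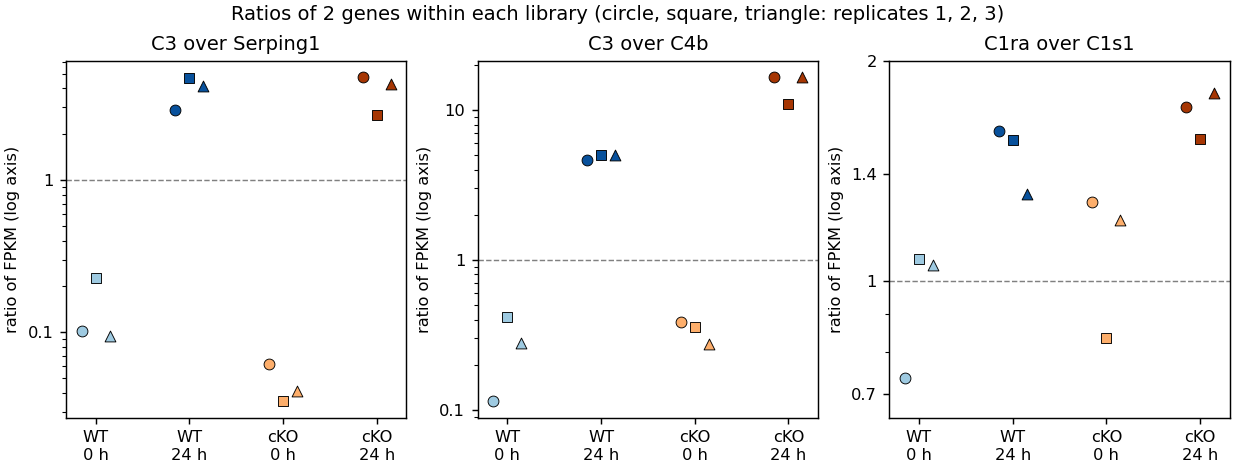
Ratio of the FPKM of 2 genes within each library (log axis), with a dashed line at 1. C3 is below Serping1 and C4b in every 0 hours library and above them in every 24 hours library, and C3 over C4b at 24 hours PCS is 4.66 to 5.02 in WT and 11 to 16.6 in β8ITG-cKO LCs.

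The lowest or highest values of several members fell in the same library in each of the 4 conditions. With 9 members and 3 libraries some sharing had to occur, and its extent was not tested. In β8ITG-cKO LCs at 24 hours PCS, replicate 2 was the lowest library for 9 of 9 members, although it was lowest for 29.8% of 15262 genes, and replicate 3 was highest for 6 of 9 (47.1% of genes). In WT LCs at 24 hours, replicate 3 was highest for 8 members (25.1% of genes) and replicate 1 lowest for 8 (29.8% of genes). In WT LCs at 0 hours replicate 3 was lowest for 8 members (50.6% of genes), while the highest values were divided between replicate 2 (6 members, 51.5% of genes) and replicate 1 (3 members). In β8ITG-cKO LCs at 0 hours the members were spread more widely, with replicate 1 highest for 5 (43.8% of genes) and replicate 2 lowest for 6 (43.7% of genes). The widest spread was that of C1qc in WT LCs at 24 hours, with the highest library 10.2 times the lowest, and the narrowest that of C1s1 in β8ITG-cKO LCs at 0 hours, with 1.09 times.

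A further question was whether the genotypes differed at the same time PCS. At 24 hours, none of the 9 members differed by the test, against 6.29% of 15366 genes in either direction (5.64% higher and 0.644% lower in β8ITG-cKO LCs, 3.37% called higher and 0.286% called lower). Of the genes past the threshold 89.8% were higher in β8ITG-cKO LCs, and 76.4% after rescaling. C1qa and C4b had the lowest unadjusted p-values of the members in limma. C3 was 0.40 higher in β8ITG-cKO LCs on the log2 scale with a 95% confidence interval from -0.85 to 1.66 (adjusted p = 0.728), and Cfb was 0.46 lower in the estimate with an interval from -1.50 to 0.57 (adjusted p = 0.613), so the intervals left room for differences of more than 2-fold. The log2 difference was 0.27 for C1ra, 0.10 for C1s1, 0.41 for Serping1, 0.20 for C1qb and 0.93 for C1qc, with overlapping ranges for each.

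C1qa had the only ranges that were apart at 24 hours, with 2.41 to 4.51 FPKM in β8ITG-cKO LCs above 0.63 to 1.93 FPKM in WT LCs (log2 difference 1.04 ± 0.28 SE, unadjusted p = 0.00671, adjusted p = 0.0784), beside 17.5% of genes apart as higher and 9.0% as lower. C4b was between 4.13 and 11 FPKM in β8ITG-cKO LCs and between 9.34 and 24.3 FPKM in WT LCs (-1.04 ± 0.40 SE, unadjusted p = 0.0356, adjusted p = 0.205). Only the highest β8ITG-cKO library of C4b, replicate 3, reached into the WT range.

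At 0 hours PCS, C4b was lower in β8ITG-cKO LCs. It was 5.72, 4.03 and 5.58 FPKM, below all 3 WT libraries with 27.3, 22.1 and 8.92 FPKM, which made the mean 3.80-fold lower (log2 difference -1.62 ± 0.36 SE, adjusted p = 0.0368). It was the 1 member of 9 that passed and that met all criteria, and no member passed as higher, against 4.18% of 14708 genes higher and 2.75% lower (6.94% in either direction), with 1.35% called higher and 1.18% called lower. The call was lost in 7 of 11 alternatives. Without WT 0 hours replicate 1 the adjusted p was 0.106 (log2 difference -1.32), without WT 0 hours replicate 2 it was 0.0845, and without β8ITG-cKO 0 hours replicates 1, 2 and 3 it was 0.0845, 0.120 and 0.112.

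The paralog C4a had the same pattern at a lower level, with 2.06, 2.13 and 0.81 FPKM in WT and 0.52, 0.44 and 0.61 FPKM in β8ITG-cKO LCs at 0 hours (log2 difference -0.77 ± 0.23 SE, adjusted p = 0.0898). C4a and C4b share sequence, so the authors' counting could split reads between them, and the pair need not be independent. Of the marker lists of other cells, that of red blood cells was also lower in the β8ITG-cKO 0 hours libraries. All 5 red blood cell markers tested passed as lower, with sums of 6.52 to 15.8 FPKM against 68.0 to 153 FPKM in WT. The 6 iris and ciliary pigment markers summed to between 11.5 and 15.5 FPKM against 19.9 to 84.0 FPKM, with 0 of 5 tested past the threshold. Macrophage sums (12 to 16.1 against 9.98 to 18.7 FPKM) and photoreceptor sums (177 to 328 against 138 to 1152 FPKM) overlapped between the genotypes, with 0 markers past the threshold. The corneal stroma sum was higher in β8ITG-cKO LCs (544 to 918 against 229 to 279 FPKM), nearly all of it Aldh3a1. Of 4 corneal stroma markers tested, 1 passed as higher and 1 as lower. Dcn was lower in β8ITG-cKO LCs (0 to 0.17 against 1.91 to 2.78 FPKM), as was Col1a2 (6.23 to 8.27 against 10.47 to 17.95 FPKM). Within WT, replicate 1 had the highest C4b, red blood cell sum and pigment sum at 0 hours, and replicate 3 the lowest of each. Their part in the C4b difference was not tested.

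C3 was also apart between the genotypes at 0 hours, with 1.43 to 2.2 FPKM in β8ITG-cKO LCs below 2.49 to 9.18 FPKM in WT LCs, but did not pass (log2 difference -0.96 ± 0.37 SE, adjusted p = 0.166). C4b and C3 were the 2 members with ranges apart, both lower, against 12.8% of genes apart as lower and 18.0% as higher. Cfb (-0.63, adjusted p = 0.176), C1qb (-0.87, adjusted p = 0.167) and C1qc (-0.83, adjusted p = 0.0935) had negative estimates with overlapping ranges. C1ra (-0.0017), C1s1 (-0.17), C1qa (-0.36) and Serping1 (0.23) had 95% confidence intervals that included 0.

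**Figure D4:**
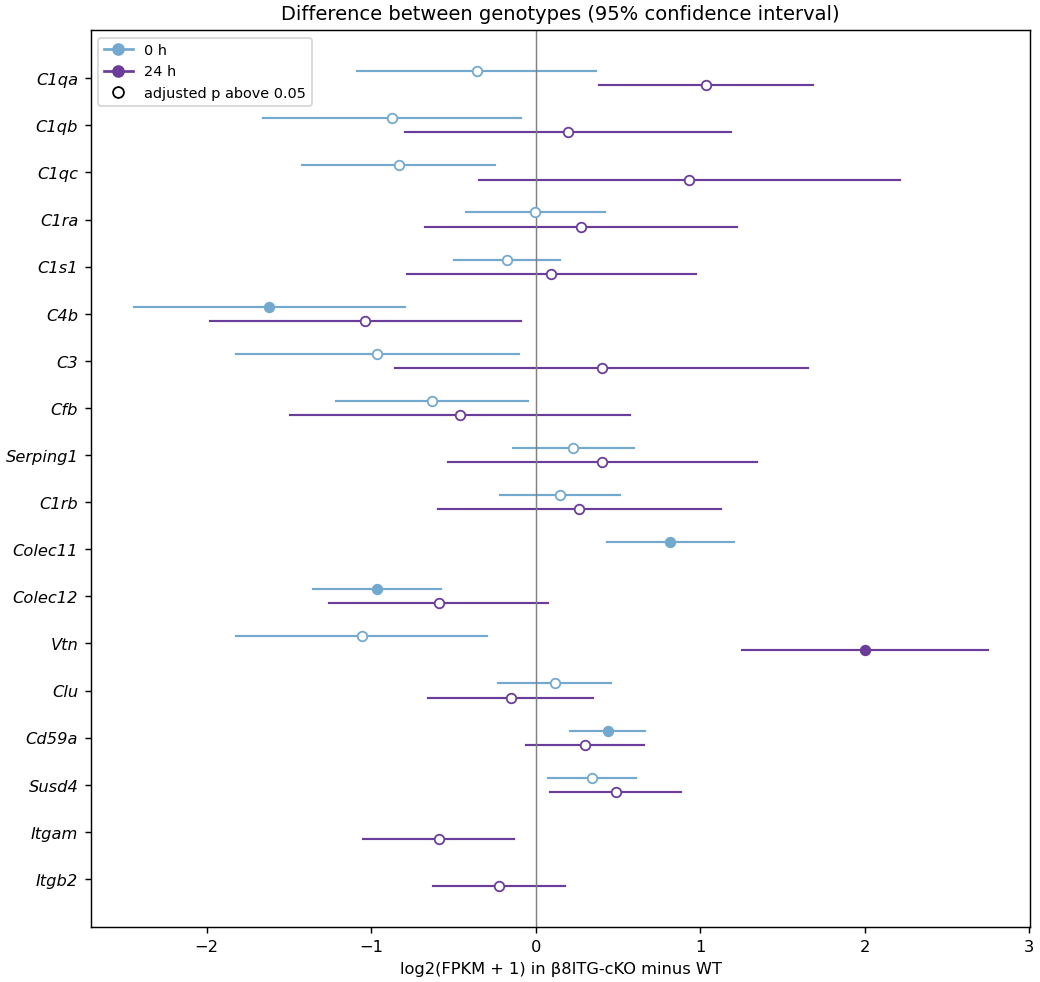
Difference in log2(FPKM + 1) between β8ITG-cKO and WT LCs at 0 hours (light blue) and 24 hours PCS (purple), as limma estimates with 95% confidence intervals, open where the adjusted p is above 0.05 and missing where a gene was below the filter. Among the members C4b at 0 hours (-1.62) is the filled point, and Vtn at 24 hours (2.00) is the highest estimate shown.

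The change from 0 to 24 hours was then compared between the genotypes in 1 fit over the 12 libraries. None of the 9 members passed, against 9.39% of 15262 genes (6.83% with a more positive and 2.56% with a more negative change in β8ITG-cKO LCs, or 72.8% of those past the threshold as more positive, and 62.8% after rescaling). In this fit C1qa and C1qc had the lowest unadjusted p-values of the members. The C1qa change was 1.4 ± 0.46 (SE) more positive on the log2 scale in β8ITG-cKO LCs (adjusted p = 0.0828) and that of C1qc 1.77 ± 0.67 (adjusted p = 0.127). The 61.7-fold and 15.3-fold rises of C3 corresponded to a difference of 1.36 with a 95% confidence interval from -0.23 to 2.96 (adjusted p = 0.284). For Cfb the 55.7-fold and 22.5-fold rises corresponded to 0.17 (from -1.05 to 1.39, adjusted p = 0.892). Cfb in β8ITG-cKO LCs started at 0.12 to 0.52 FPKM, below the 1 FPKM added before the logarithm, so this scale understates its rise. Its estimate ran from -0.14 to 0.96 over the 16 alternatives and passed in none. A different response was thus not shown for either gene. Without WT 0 hours replicate 3 the difference of C1qa passed (adjusted p = 0.0221), and without β8ITG-cKO 24 hours replicate 2 that of C1qc did (adjusted p = 0.0355).

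The summed C1q chains were set beside the myeloid markers. The sum was 11.3, 11.5 and 5.10 FPKM in WT LCs at 0 hours and 2.04, 7.15 and 8.65 FPKM at 24 hours PCS, and in β8ITG-cKO LCs 5.09, 3.33 and 5.06 FPKM and then 14.8, 5.03 and 14.2 FPKM. The sum over 15 macrophage markers was higher at 24 hours in both genotypes, going from between 9.98 and 18.7 to between 38.6 and 52.4 FPKM in WT and from between 12 and 16.1 to between 37.9 and 53.9 FPKM in β8ITG-cKO LCs, with 7 of 9 and 8 of 12 tested markers past the threshold as higher and 0 as lower. The C1q sum overlapped between the times in both genotypes, in β8ITG-cKO LCs only through 24 hours replicate 2 (5.03 FPKM). The macrophage sum overlapped in neither genotype.

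The macrophage markers did not move as 1 group. In WT LCs the 7 that passed as higher were Cd68, Tyrobp, Fcer1g, Laptm5, Ctss, Fcgr1 and Mertk, and the 2 tested that did not pass were Csf1r and Mrc1. Whether the rising markers came from macrophages or from neutrophils was not tested. Cd68, a lysosomal protein of phagocytes, rose from 0.43 to 0.55 FPKM to between 6.36 and 9.03 FPKM in WT LCs, while Csf1r, the receptor for the macrophage growth factor, was 2.15, 2.72 and 1.47 FPKM at 0 hours and 1.68, 2.07 and 1.77 FPKM at 24 hours (adjusted p = 0.681). Adgre1, a surface marker of mature macrophages, was at most 0.72 FPKM in every library. Neutrophil markers were near 0 at 0 hours, with sums of 0.459 to 1.54 FPKM, and summed to 45.6 to 64.7 FPKM in WT and 12.3 to 35.0 FPKM in β8ITG-cKO LCs at 24 hours PCS, with all 5 and 4 markers tested higher, though Mpo, Elane and Ly6g were listed at 0 in all 24 hours libraries. Between the genotypes at 24 hours, 0 of 12 macrophage and 0 of 5 neutrophil markers tested passed the test. The estimates of these 5 neutrophil markers were all lower in β8ITG-cKO LCs (log2 difference from -1.56 to -0.58). In the comparison of the changes between genotypes, 1 of 4 neutrophil markers tested passed as more negative in β8ITG-cKO LCs, beside 2.56% of all genes. The part of these cells in the changes of C3, Cfb and the C1q chains was not tested.

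**Figure D5:**
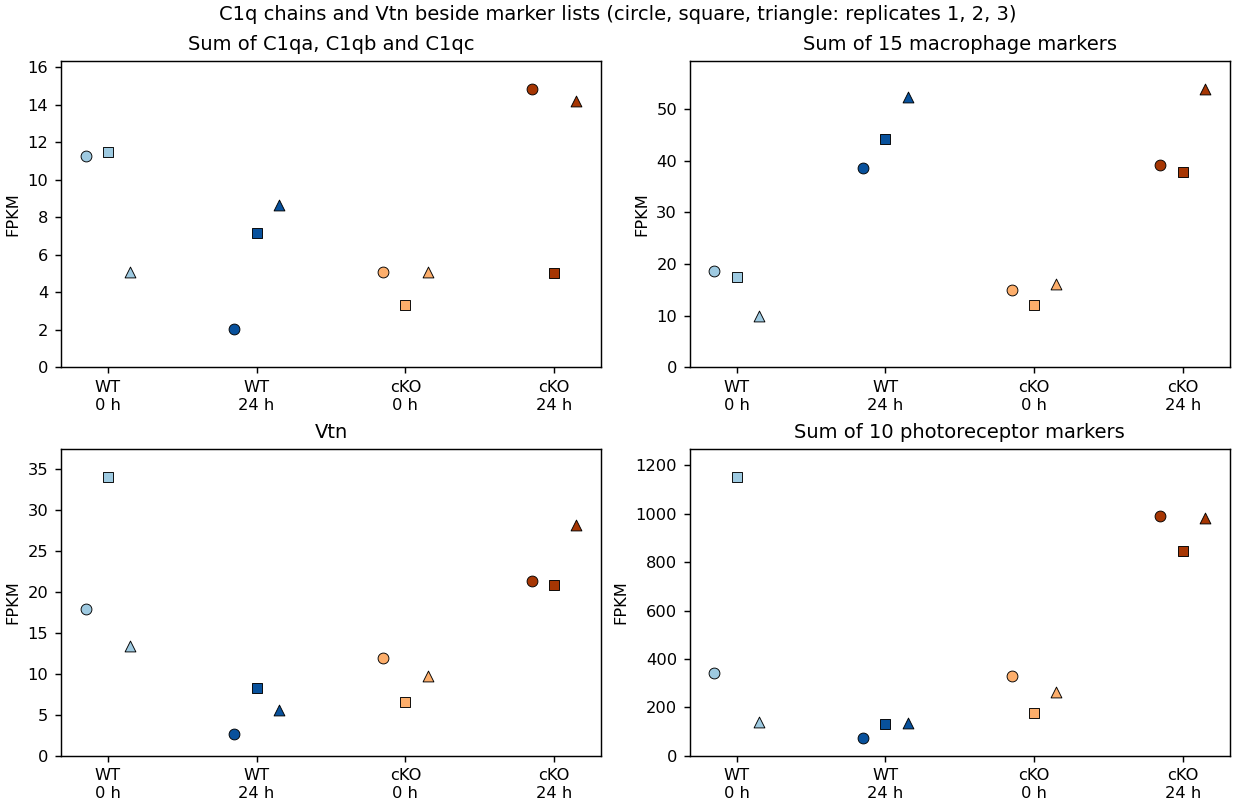
FPKM in each of the 12 libraries for the sum of the 3 C1q chains, the sum of 15 macrophage markers, Vtn and the sum of 10 photoreceptor markers, on linear axes. The macrophage sum is higher at 24 hours in both genotypes (37.9 to 53.9 FPKM), whereas the C1q sum overlaps between the times in both. Vtn and the photoreceptor sum are highest at 24 hours in β8ITG-cKO and at 0 hours in WT replicate 2.

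The interferon-stimulated genes, which are induced in antiviral and inflammatory responses, were higher with time in both genotypes. Their sum over 18 genes went from between 55.3 and 66.1 to between 162 and 265 FPKM in WT LCs, with 15 of 17 tested genes higher, and from between 60.6 and 67.8 to between 173 and 204 FPKM in β8ITG-cKO LCs, with 17 of 17 higher. C3 and Cfb rose alongside them, with no test of a link.

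Around the members, 47 other complement genes were listed by role. In WT LCs 20 of them passed the filter, and 5 were higher and 5 lower at 24 hours PCS by the test, with a median log2 change of 0.09, beside 20.9% higher, 8.81% lower and a median of 0.16 over all genes tested. The higher genes were C1rb, Masp1, C5ar1, Itgam and Itgb2, and the lower ones Colec11, Vtn, Clu, Cd59a and Susd4. In β8ITG-cKO LCs 19 passed the filter, with 6 higher (C1rb, Colec12, Vtn, C5ar1, Itgam and Itgb2) and 4 lower (Colec11, Clu, Cd59a and Susd4) and a median of 0.07, beside 35.4%, 10.7% and 0.23 over all genes. Masp1 was below the filter over time in this genotype and was not tested there. Between the genotypes, 1 of 21 (Vtn, higher) passed at 24 hours, beside 6.29% of all genes, and 3 of 16 (Colec11 and Cd59a, higher, and Colec12, lower) at 0 hours, beside 6.94%.

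The terminal components, which form the membrane attack complex downstream of C3, were 0 of 7 above the filter. The highest of them, C8g, was at most 0.61 FPKM in any library, and C9, which forms the pore, was listed at 0 in all 12. Cfd, the protease that activates factor B, was at most 0.31 FPKM, and listed at 0 in every 24 hours library, in which Cfb was 8.41 to 36.5 FPKM. The lectin-route starters Mbl1 and Mbl2 were listed at 0 throughout.

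Other starters of the cascade moved in different directions. Masp1, a protease of the lectin route, rose in WT LCs from 0.14, 0.04 and 0.06 FPKM to 0.91, 1.06 and 1.97 FPKM (adjusted p = 0.00968), below the required difference. In β8ITG-cKO LCs, where it was below the filter and not tested, Masp1 went from 0.07, 0 and 0.03 FPKM to 0.58, 0.35 and 0.56 FPKM. Colec11, a soluble collectin, was 0.84, 1.06 and 1.08 FPKM in WT LCs at 0 hours and 0.27, 0.30 and 0.03 FPKM at 24 hours PCS (log2 change -0.74, adjusted p = 0.0214), and in β8ITG-cKO LCs 2.1, 2.24 and 3.30 FPKM at the start and 0.11, 0 and 0.12 FPKM later (-1.71, adjusted p = 0.000161). At 0 hours the β8ITG-cKO values of Colec11 exceeded those of WT (0.82 ± 0.17 SE, adjusted p = 0.0313). Colec12, a scavenger receptor collectin, was lower in β8ITG-cKO LCs at 0 hours, with 4.18 to 4.92 FPKM against 8.55 to 13.2 FPKM (-0.97 ± 0.17 SE, adjusted p = 0.0205), and rose in β8ITG-cKO LCs to a mean of 9.54 FPKM at 24 hours (adjusted p = 0.0143). Several of these calls depended on single libraries: omission of any WT 0 hours replicate ended the WT change of Colec11 (adjusted p up to 0.0664), omission of any of the 6 libraries ended its difference at 0 hours (up to 0.113), and omission of any β8ITG-cKO 0 hours replicate ended that of Colec12 (up to 0.0825).

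Of the membrane regulators, which protect host cells from complement, Cd59a and Susd4 fell in both genotypes while C3 rose. Cd59a, the inhibitor of the membrane attack complex, went from 16.9, 18.1 and 16.9 to 9.52, 7.52 and 8.20 FPKM in WT LCs (log2 change -0.96 ± 0.14 SE, adjusted p = 0.0027) and from a mean of 23.7 to 10.6 FPKM in β8ITG-cKO LCs (adjusted p = 0.000297). Susd4, which inhibits the C3 convertase, went from a mean of 5.60 to 1.49 FPKM (adjusted p = 0.00111) and from 7.37 to 2.49 FPKM (adjusted p = 0.000243). Times did not overlap for either gene in either genotype. At 0 hours Cd59a was 1.38-fold higher in β8ITG-cKO LCs (adjusted p = 0.0404), a call lost without any 1 of the 6 libraries (adjusted p from 0.0565 to 0.142). Cd46, Cd55, Cd59b and Cr1l, the other membrane regulators tested over time, passed in neither genotype.

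Clu, clusterin, a chaperone that also blocks the membrane attack complex, was the most abundant complement regulator listed. It was 1565, 1586 and 1500 FPKM in WT LCs at 0 hours and 862, 753 and 1083 FPKM at 24 hours PCS (log2 change -0.80 ± 0.23 SE, adjusted p = 0.0335), and in β8ITG-cKO LCs fell from a mean of 1681 to 803 FPKM (adjusted p = 0.00101). The WT call was lost in 7 of 11 alternatives, among them the omission of each WT library other than 24 hours replicate 3 (adjusted p from 0.0675 to 0.122). Clu was still at least 8.88 times C3 in WT LCs and at least 5.03 times C3 in β8ITG-cKO LCs at 24 hours.

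Vtn, vitronectin, an adhesive protein that binds integrins and blocks terminal complement, was the listed gene with opposite courses. It fell in WT LCs from 17.9, 34.1 and 13.4 to 2.68, 8.21 and 5.56 FPKM (log2 change -1.81 ± 0.41 SE, adjusted p = 0.0146, and 0.0564 with no filter on low values) and rose in β8ITG-cKO LCs from 11.9, 6.55 and 9.77 to 21.4, 20.9 and 28.1 FPKM (1.25 ± 0.21 SE, adjusted p = 0.00207). At 24 hours it was 4.28-fold higher in β8ITG-cKO LCs (2.00 ± 0.32 SE, adjusted p = 0.0111), and without β8ITG-cKO 24 hours replicate 3 the adjusted p was 0.0535. Photoreceptor transcripts had the same order of conditions. Their sum was 73.4 to 136 FPKM in WT and 848 to 990 FPKM in β8ITG-cKO LCs at 24 hours, with 10 of 10 markers called higher than in WT LCs at that time, and WT 0 hours replicate 2, with the highest Vtn of all libraries, also had the highest photoreceptor sum. Their part in the Vtn difference was not tested.

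Of the 8 complement receptors listed, 3 passed the filter over time, Itgam, Itgb2 and C5ar1, and all 3 rose in both genotypes. Itgam and Itgb2, which encode the chains of complement receptor 3 on myeloid cells, were 39.5-fold and 21.3-fold higher at 24 hours in WT LCs (adjusted p = 6.6e-05 and 0.000212) and 25.9-fold and 23.3-fold higher in β8ITG-cKO LCs (adjusted p = 4.8e-05 and 2.9e-05). Itgam was 0.24, 0.36 and 0.13 FPKM in WT LCs at 0 hours and 9.69, 8.42 and 10.7 FPKM at 24 hours. C5ar1, the receptor for C5a, rose from means of 0.112 to 1.41 FPKM in WT and 0.0829 to 1.3 FPKM in β8ITG-cKO LCs (adjusted p = 0.00354 and 0.00056), under the 2 FPKM required for a call. The other receptors were too low to be tested over time, among them C3ar1, the receptor for C3a, at most 0.63 FPKM in every library, and Cr2, complement receptor 2, with means of 0.116 and 0.0385 FPKM at 0 and 24 hours in WT LCs. Itgam and Itgb2 overlap with the myeloid markers in what they mark.

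Genes of like pattern were sought for 5 members among 6882 genes averaging 5 FPKM or more, by the root mean square difference of log2(FPKM + 1), each gene centred on its own mean, over the 12 libraries. Nearest to C3 were Chil1 (0.47), Ifitm1 (0.48) and Steap4 (0.51), while the C3 values themselves had a root mean square of 2.32 around their mean. Chil1 went from means of 9.06 to 236 FPKM in WT and from 7.96 to 245 FPKM in β8ITG-cKO LCs. Nearest to Serping1 were Tns2, Ssbp2 and Mxd4 (0.22 to 0.25), to C1s1 Ifitm2, Zfp36l2 and Slc9a3r1 (0.23 to 0.27) and to C1qa Slc31a2, Kank1 and Whamm (0.23 to 0.29). Nearest to C4b were Rpph1, Dusp1 and Klf6 (0.47 to 0.50), a distance that was large beside the 0.85 of C4b itself.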

How the data were processed

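RNA was taken from lens capsules with attached LCs and sequenced as stranded total RNA. According to the submitters' processing notes, reads were handled with FastQC, cutadapt 1.12, TopHat2 2.1.0 and Cuffdiff 2.2.1, with the builds mm10 and GRCm38.p5 named. The authors deposited FPKM values per gene and library in 4 tables of 45859 genes, each holding a pair of conditions. The 12 library columns were the same in both tables that hold them. Columns of the authors' averages (8), Cuffdiff group values (8), fold changes and p-values were not used. Libraries were grouped by their labels. FPKM give no counts, so depth and counting intervals are unknown, and the FPKM of a library summed to between 446531 and 740140.

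Genes averaging 0.5 FPKM or more over the libraries of a comparison were tested as log2(FPKM + 1) with limma 3.58.1 (trend, R 4.3.3) and Benjamini-Hochberg adjustment over all genes tested. An exact permutation test of 3 against 3 cannot go below p = 0.1, so none was used. The procedure was tested on simulated data. The members, the lists and the named genes (all members, other complement genes that met all criteria, paralogs and the 3 nearest genes in pattern) were chosen with earlier results of these data known, and Masp1, C5ar1, C3ar1, Cr2, Cfd, C8g, C9, Mbl1 and Mbl2 after their values were seen. Of the complement genes first listed, 1 is not reported here. Alternatives were a pseudocount of 0.1, no filter, rescaling to the same median, the replicate number as a block, 1 fit over all libraries, an adjusted p of 0.01 and omission of each library. Marker lists covered macrophages, neutrophils, photoreceptors, Mueller glia, pigment cells, corneal stroma and epithelium, red blood cells, lens epithelium and fibers, and interferon-stimulated genes. Positions and promoters were read with Python 3.11.15.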

Additional observations from a re-analysis of the deposited data

Results flagged for a closer look

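Of the complement genes named, Vtn and Colec11 changed differently with time in the genotypes, by the interaction term over the 12 libraries. Of 20 other complement genes tested, 1 passed as more positive and 1 as more negative in β8ITG-cKO LCs, and 0 of the 9 members passed. Over all 15262 genes 6.83% passed as more positive and 2.56% as more negative (9.39% in either direction). The change of Vtn was 3.06 ± 0.51 (SE) more positive in β8ITG-cKO LCs on the log2(FPKM + 1) scale (adjusted p = 0.00737), with a fall in WT and a rise in β8ITG-cKO LCs. It passed in all 16 alternatives, with adjusted p up to 0.0225. In the same fit 10 of 10 photoreceptor markers passed as more positive, with log2 differences from 2.80 to 4.13. Their part in the Vtn interaction was not tested. The interaction of Colec11 was -0.97 ± 0.23 (SE, adjusted p = 0.0245), a steeper fall in β8ITG-cKO LCs from a higher start. It was lost with a pseudocount of 0.1 (-1.96, adjusted p = 0.111) and without WT 0 hours replicate 1, WT 24 hours replicate 1, β8ITG-cKO 0 hours replicate 3 or β8ITG-cKO 24 hours replicate 2 (adjusted p up to 0.0607). Both genes are low or variable in places, with Colec11 at 0 FPKM in β8ITG-cKO 24 hours replicate 2. With 3 libraries per condition no single library was tested for standing apart.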

How the results depend on the processing

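Of the values of single named genes under the alternatives, 1004 kept direction and side of the threshold, 24 that had not passed changed sign and still did not pass, 63 lost the threshold, 16 gained it and 0 that had passed changed sign. The number of the 9 members past the threshold in β8ITG-cKO LCs over time was 5, and 3 without the filter and without β8ITG-cKO 0 hours replicate 2, and 2 at an adjusted p of 0.01. The number that met all criteria was 3 after rescaling, and omission of 1 library gave 3 to 7. In WT LCs it was 3, and 3 to 5 with 1 library left out (5 without WT 24 hours replicate 3). At 0 hours the 1 difference was 0 without the filter, with the replicate block, at an adjusted p of 0.01, and 0 to 1 with 1 library left out. At 24 hours the count of 0 became 1 with the replicate block (C4b, adjusted p = 0.0447), and for the interaction 0 to 1 with 1 library left out. Rescaling moved the median change of all genes from 0.158 to -0.0436 in WT and from 0.228 to -0.00314 in β8ITG-cKO LCs. Same-numbered libraries did not deviate together (correlations from -0.22 to 0.082, 0 of 18 pairs over 0.1), so the numbers were not taken to pair the samples. Low levels of the C1q chains limit what these FPKM can resolve.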

Other observations

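The remaining marker lists were measured beside the members. The 6 Mueller glia markers summed to 144 to 283 FPKM in WT LCs at 0 hours, 192 to 345 FPKM at 24 hours PCS, 89.2 to 147 FPKM in β8ITG-cKO LCs at 0 hours and 174 to 280 FPKM at 24 hours. With time, 0 of the 6 passed as higher and 2 as lower (Rgr and Aqp4) in WT LCs, and 4 as higher and 1 as lower in β8ITG-cKO LCs. Most of each sum was Glul, with 98.0 to 207, 158 to 289, 50.7 to 108 and 124 to 205 FPKM in the order of the conditions above. Corneal stroma markers summed to 229 to 279, 168 to 409, 544 to 918 and 153 to 215 FPKM in the same order, with Kera, their defining marker, listed at 0 in 3 of the 4 conditions. Nearly all of that sum was Aldh3a1, an aldehyde dehydrogenase abundant in cornea, with 208 to 264, 151 to 392, 535 to 911 and 138 to 189 FPKM. Corneal epithelium markers summed to at most 16.1 FPKM in any library.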
